A study of Homo sapiens with 10 samples.

Results

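The mRNAs of 42 genes of DNA replication and nucleotide synthesis were followed in the prostate cancer line PC3, both in whole cells and in the extracellular vesicles (EVs) it releases. The 42 genes were chosen by name, and their rows were found through GENCODE release 29 symbols among the 94946 rows of the deposited count table. Each symbol had 1 row, and all 42 had enough counts to enter the tests.

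Replication starts where the origin recognition complex, with CDC6 and CDT1, loads the MCM2-7 helicase onto DNA. CDC45 and the GINS complex then turn the loaded helicase into an active one, polymerase alpha-primase lays down primers, and polymerases delta and epsilon extend them, held on DNA by the PCNA ring that the RFC complex loads. Ribonucleotide reductase, thymidylate synthase and thymidine kinase supply the nucleotides, and many of these genes are transcribed mainly as cells enter S phase.

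Vesicles were spun down at low, middle and high speed, and the pellets are named EV 2.8K, EV 10K and EV 100K after the speeds in the labels, where no unit stands beside them. There were 3 libraries for each pellet, which the labels number as sets, and 1 for whole cells. All came from PC3 cultures in serum-supplemented DMEM, with Trizol extraction and a stranded total RNA kit for small inputs. Whether the sets were separate cultures is not stated in the labels, and the p-values therefore reflect variation among these samples, possibly of technical origin.

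Levels are given as CPM, counts per 1e+06 of a library total scaled by TMM factors. Library totals ranged from 5424964 to 14977955 counts in the 9 EV libraries, and the cell library held 28735081. The keratins KRT8 and KRT18, markers of epithelial cells, were abundant in all 10 libraries, while the prostate luminal gene KLK3, the basal keratin KRT5 and the leukocyte gene PTPRC had no count in any. Mitochondrially encoded genes averaged 7.53% of counts in the EV 2.8K libraries, 0.954% in those of EV 10K and 0.00645% in those of EV 100K, and the cell library had 2.88%. That share fell with pellet speed. KRT8 had 197, 219 and 230 CPM in EV 100K, against 700, 564 and 545 CPM in EV 2.8K, and 2 of the 4 epithelial markers tested, KRT8 and KRT18, passed as lower there. The part of the keratin shift in the results was not tested. Leaving the mitochondrial genes out before normalization left the number of the 42 mRNAs called at 0, 12, 5 and 11 in the 4 main comparisons.

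Together the 42 mRNAs took a share of 0.239% ± 0.00897 (SD) of the EV 2.8K counts, 0.229% ± 0.0165 for EV 10K and 0.193% ± 0.0147 for EV 100K, over 3 libraries each, whereas their share in the cell library was 0.498% (95% Wilson interval 0.495 to 0.501, counting error only). The highest EV library, at 0.249%, lay below the cell library. Values are relative to all counts of a library. Fewer vesicles carrying an mRNA, fewer molecules of it per vesicle and more of other RNAs therefore cannot be told apart.

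The mean of the 3 EV pellets was compared with the cells for each mRNA. Of the 42 mRNAs, 11 were lower in EVs and 0 were higher at an adjusted p under 0.05 (edgeR's quasi-likelihood test, Benjamini-Hochberg adjustment over 22370 genes), against 1.88% of all genes lower and 2.56% higher, or 4.43% called in all. With 1 cell library, the count filter let in genes counted in only 1 library, and 13528 of the 22370 were protein-coding. Every share of all genes given for a comparison with cells has this background. A background of genes with counts like those of the 42 was not computed. The 11 mRNAs lower in EVs were all 6 subunits of the MCM2-7 helicase, GINS4, PCNA, RRM1, RRM2 and TK1. The log2 fold change was negative for 39 of the 42, with a median of -1, against -0.16 for all genes tested. The cell library lay above all 9 EV libraries for 26 of the 42 mRNAs and below all 9 for 0, and across all genes these shares were 13% and 4.81%. The 16 mRNAs whose cell value fell inside the EV range included RPA2 and RPA3, 3 of the 4 genes of polymerase alpha-primase and 5 of the 6 of polymerases delta and epsilon. TK1, although one of the 11 called lower, was also among these 16.

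The cell library has no replicate, so only the EV libraries informed the spread. The median of the prior degrees of freedom over genes was infinite. For a typical gene the spread was therefore a trend shared across genes, not its own variation among libraries. The p-values against cells thus do not measure each mRNA's own replicate spread. Scaling shifted all genes together: the median over all genes was -0.04 with RLE size factors and -0.46 with library totals alone, and that of the 42 mRNAs was -0.88 and -1.32. The number called lower was 7 with DESeq2, 17 with library totals alone and 28 with limma voom, where 10.3%, 6.08% and 16.7% of all genes were called in either direction, and MCM3 and TK1 each lost their call under 7 of 15 alternatives.

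Taken separately, EV 2.8K had 6 of the 42 mRNAs lower than cells, EV 10K had 6 and EV 100K had 16, against 0.693%, 1.6% and 5.46% of all genes. MCM4, MCM6, PCNA and RRM2 were lower in each pellet. These comparisons share the cell library. In EV 100K all 4 nucleotide synthesis mRNAs were lower than in cells, with log2 fold changes of -1.19 for TYMS, -1.63 for RRM1, -1.91 for RRM2 and -2.47 for TK1.

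**Figure D1:**
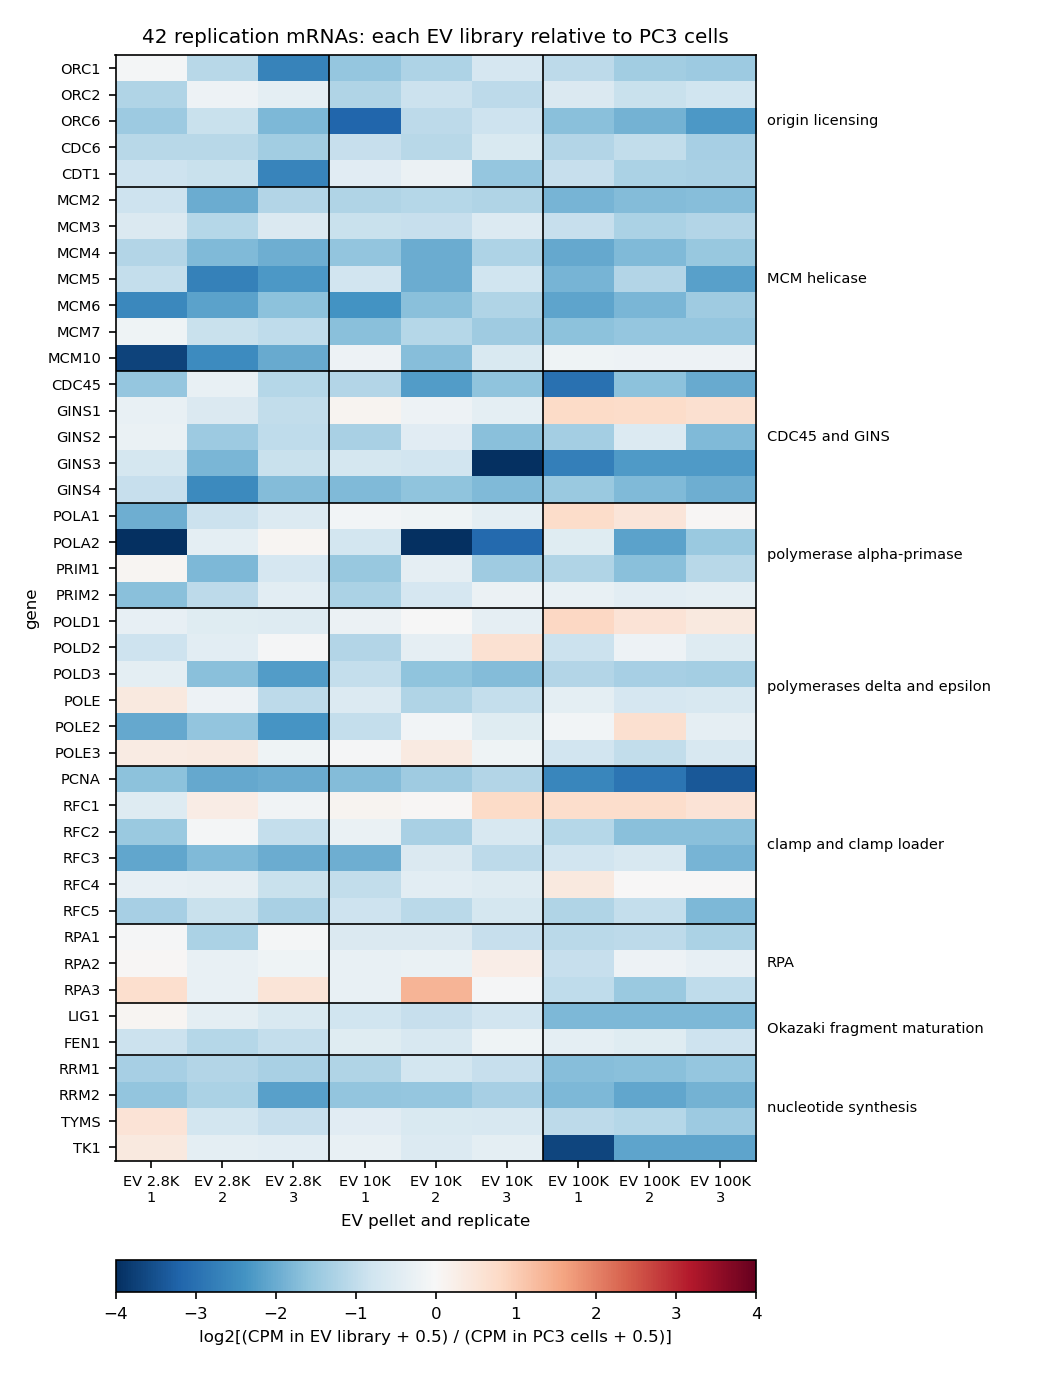
Colour gives log2[(CPM in the EV library + 0.5) / (CPM in PC3 cells + 0.5)] for 42 mRNAs (rows, in blocks by role) in 9 EV libraries (columns, 3 per pellet), with the scale ending at -4 and 4. Blue marks a lower level than in the cell library: the MCM2 to MCM7 rows and the PCNA and RRM2 rows are blue in every column, while GINS1, POLD1 and RFC1 are red in all EV 100K columns.

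**Figure D2:**
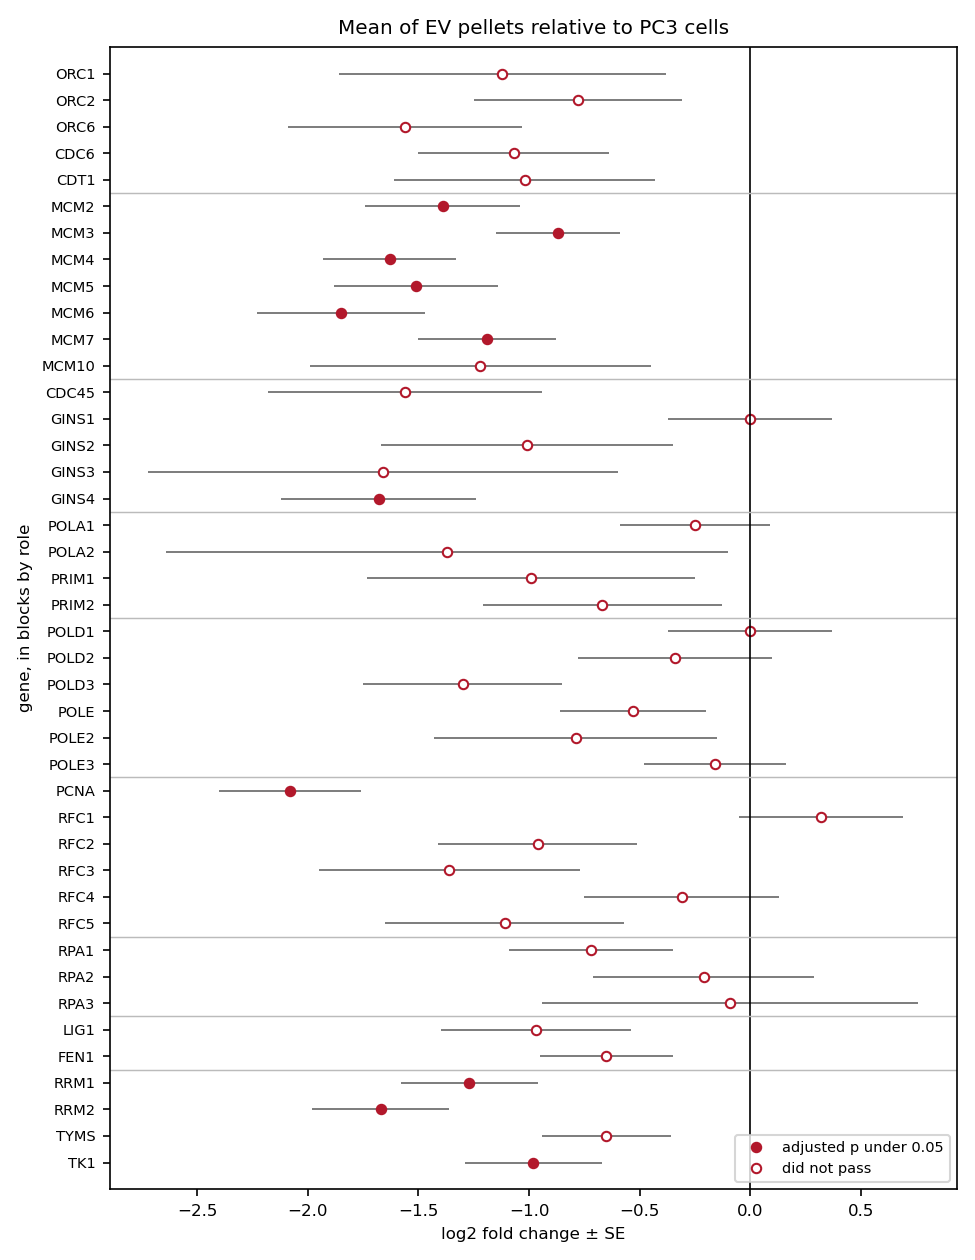
Log2 fold change of the mean of 3 EV pellets over PC3 cells with its SE (x axis) for 42 mRNAs in blocks by role (y axis), with filled points for an adjusted p under 0.05. All filled points lie left of 0, with PCNA at -2.08 the lowest of them.

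Among pellets, EV 10K differed from EV 2.8K for 0 of the 42 mRNAs (edgeR), where 6.38% of all genes passed. At an unadjusted p under 0.05 there were 6, against 20.7% of all genes. DESeq2 called 2, against 10.7% of all genes, and limma voom 0, against 3.03%. Against EV 2.8K, EV 100K had 6 of the 42 higher and 6 lower, 12 in all, and across all genes 12% were higher, 13.8% lower and 25.8% called, so the share of the 42 called was close to the background. Higher in EV 100K were MCM10, POLE2, POLA1, GINS1, POLD1 and RFC1, and lower were TK1, LIG1, PCNA, TYMS, POLE3 and MCM7. The median log2 fold change was -0.31, against -0.06 for all genes. Against EV 10K, EV 100K had 2 of the 42 higher, GINS1 and POLD1, and 3 lower, TK1, PCNA and POLE3. That is 5 in all, where 10.9% of all genes passed, 3.7% higher and 7.23% lower.

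Calls near the threshold depended on single libraries. Against EV 2.8K, MCM7 lost its call without EV 2.8K replicate 1 (adjusted p = 0.0589) or EV 100K replicate 1 (0.0515), POLE2 without EV 100K replicate 2 (0.0515) and PCNA without EV 100K replicate 3 (0.093). RFC1 lost it under 8 of 18 alternatives and TYMS under 4. Against EV 10K, the count of 5 became 2 without EV 10K replicate 2 or any of the 3 EV 100K libraries, 3 without EV 10K replicate 3 and 10 without EV 2.8K replicate 1. The share of all genes called moved too, to 5.72% without EV 100K replicate 1 and 15.2% without EV 2.8K replicate 1. TK1 and PCNA kept their calls there under all 18 alternatives.

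**Figure D3:**
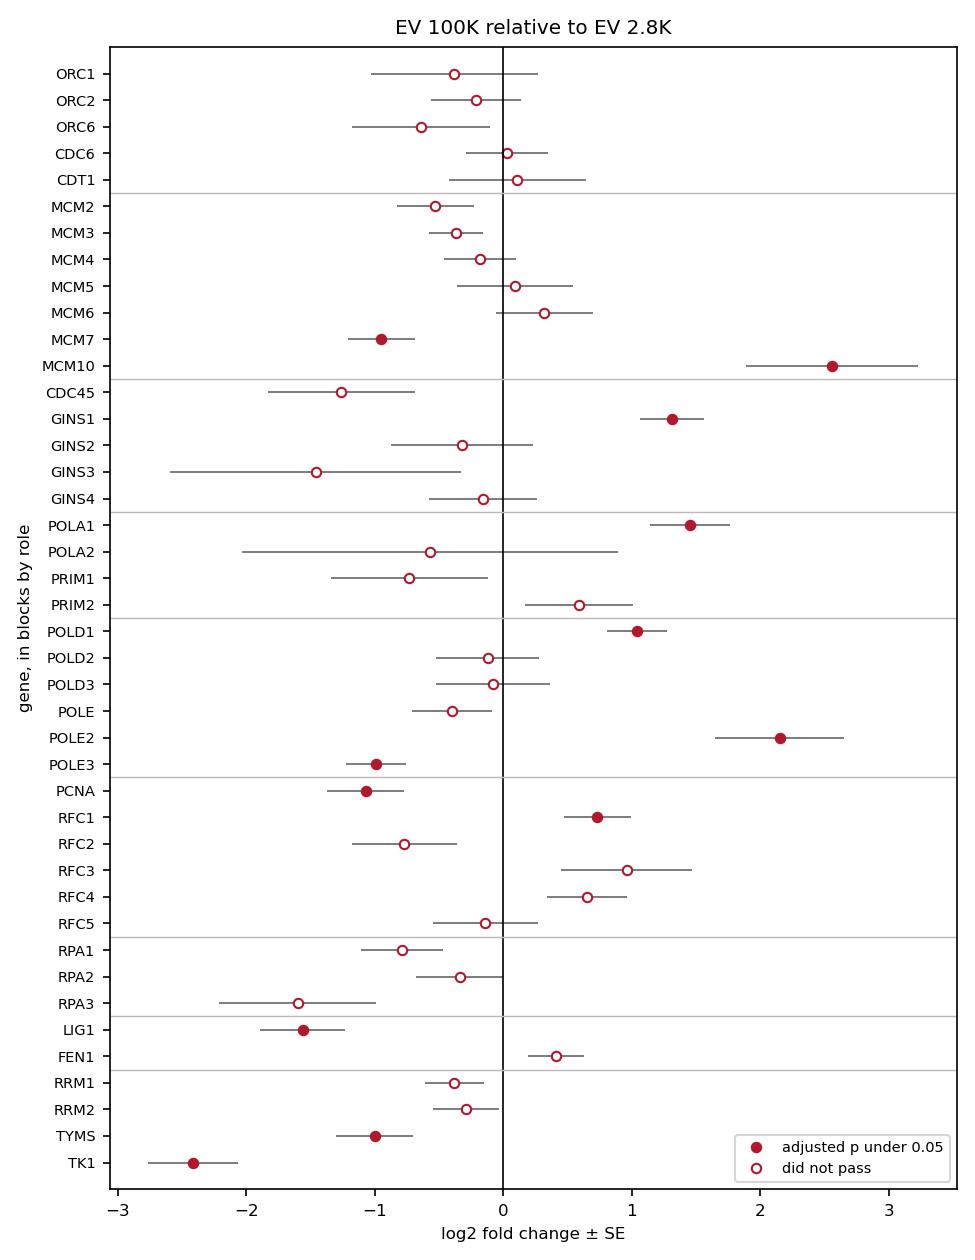
Log2 fold change of EV 100K over EV 2.8K with its SE (x axis) for 42 mRNAs in blocks by role (y axis), with filled points for an adjusted p under 0.05. Of the 12 filled points, 6 lie right of 0, with MCM10 at 2.56 the highest, and 6 lie left of it, with TK1 at -2.41 the lowest.

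The origin licensing mRNAs, for the origin recognition subunits ORC1, ORC2 and ORC6 and the helicase loaders CDC6 and CDT1, passed no test in any of the 4 main comparisons. CDC6 had 33.0, 32.9 and 27.1 CPM in EV 2.8K, 37.3, 33.3 and 47.0 CPM in EV 10K, 31.8, 35.9 and 28 CPM in EV 100K, and 71.8 CPM in cells. The pellets overlapped and the cell library was above every EV library, and the log2 fold change of EVs over cells was -1.07 ± 0.43 (SE, adjusted p = 0.182). All 5 had a cell value above all 9 EV libraries, with log2 fold changes of -1.56 (ORC6) to -0.78 (ORC2). ORC6 was lower in EV 100K than in cells (log2 fold change -1.96, adjusted p = 0.0197).

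The MCM2-7 subunits, which form the ring of the replicative helicase, were all called lower in the mean of EVs than in cells. MCM3 lost this call under 7 of 15 alternatives. Of 7 MCM mRNAs, MCM10 included, 3 were called lower than cells in EV 2.8K alone, 3 in EV 10K and 6 in EV 100K. MCM6 (chr2:135839626-135876426, minus strand, GRCh38) had 20.2, 27.6 and 39.2 CPM in EV 2.8K, 23.0, 38.3 and 53.2 CPM in EV 10K, 28.2, 34.8 and 45.6 CPM in EV 100K, and 124 CPM in cells. Every EV library was below the cells and the pellets overlapped one another. The log2 fold change over cells was -1.85 ± 0.38 (adjusted p = 8.11e-05). MCM2 (chr3:127598223-127622436, plus strand) had 77.7, 34.5 and 61.9 CPM in EV 2.8K, 60.3, 62.1 and 60.6 CPM in EV 10K, 37.7, 41.1 and 42.4 CPM in EV 100K, and 139 CPM in cells. Its EV 10K libraries were close together and its EV 2.8K libraries spread over the range of both other pellets. The log2 fold change of EVs over cells was -1.39 ± 0.35 (adjusted p = 0.0023).

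The other subunits gave log2 fold changes over cells of -1.63 for MCM4, -1.51 for MCM5, -1.19 for MCM7 and -0.87 for MCM3, the most abundant of them. MCM5 lost its call without EV 10K replicate 1 or 3 and with DESeq2 (adjusted p up to 0.147). MCM7 was the subunit that passed between pellets, with 174, 105 and 96.2 CPM in EV 2.8K, 60.7, 89.1 and 72.4 CPM in EV 10K and 62.6, 66.7 and 65.8 CPM in EV 100K, against 195 CPM in cells. All 3 EV 100K libraries were below all 3 EV 2.8K libraries, with a log2 fold change of -0.95 ± 0.26 (adjusted p = 0.0116). MCM7 shares exon sequence with AP4M1 on the opposite strand, and no label or header states the strand setting of the counting.

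MCM10, an initiation factor that binds the helicase outside the ring, went the other way between pellets. It had 1.22, 3.38 and 5.03 CPM in EV 2.8K (16, 56 and 58 counts), 18.8, 6.41 and 14.3 CPM in EV 10K, 19.5, 18.9 and 18.9 CPM in EV 100K, and 21.9 CPM in cells. Its EV 2.8K libraries were below all other libraries, and its EV 100K libraries lay close to the cells. EV 100K exceeded EV 2.8K with a log2 fold change of 2.56 ± 0.67 (adjusted p = 0.00808), and EV 10K over EV 2.8K was 2.04 ± 0.66 (adjusted p = 0.0783).

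Many replication genes carry E2F sites in their promoters, so the windows of 250 bases before to 50 after the start were searched on both strands for TTTCCCGC, TTTCGCGC, TTTGCCGC and TTTGGCGC, the E2F-type octamers. RefSeq (GRCh38.p14) gave a window for 36 of the 42 genes. Of these, 17 (47.2%) held a match, against 3.33% of 27305 windows taken once per gene. Those windows were not limited to genes expressed here and were not matched to the 42 in base composition. In 32 of the 36, 30 bases after the start were found in a transcript of the gene. Of the mRNAs lower in EVs than in cells, 5 of the 8 with a window held one, as did 12 of the 28 that did not pass. Between EV 100K and EV 2.8K, 3 of the 6 higher and 4 of the 6 lower held one. A match describes the letters and is not evidence of a binding site. Below are 60 bases, 5′ to 3′ on the gene's strand, for MCM3, MCM6 and PCNA, which were lower in EVs, and POLA1, which was higher in EV 100K than in EV 2.8K. They show what the matches look like in front of mRNAs that passed in these comparisons, and capitals mark the matches, a pair of which overlap in MCM6.
MCM3: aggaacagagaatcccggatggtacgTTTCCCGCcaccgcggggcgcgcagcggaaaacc
MCM6: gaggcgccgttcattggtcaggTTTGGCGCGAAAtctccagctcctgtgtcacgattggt
PCNA: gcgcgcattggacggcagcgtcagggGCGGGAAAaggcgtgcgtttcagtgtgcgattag
POLA1: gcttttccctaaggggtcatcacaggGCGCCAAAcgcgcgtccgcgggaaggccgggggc
The stretches are chr6:52284883-52284942 (minus strand), chr2:135876496-135876555 (minus), chr20:5126648-5126707 (minus) and chrX:24693755-24693814 (plus).

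CDC45 and the 4 GINS subunits complete the active helicase. GINS1 (chr20:25407727-25452628, plus strand) had 63.3, 52.0 and 39.4 CPM in EV 2.8K, 83.3, 67.1 and 59.5 CPM in EV 10K, 133, 131 and 121 CPM in EV 100K, and 77.9 CPM in cells. All EV 100K libraries exceeded every other library, the cells included. EV 100K was higher than EV 2.8K with a log2 fold change of 1.31 ± 0.25 (adjusted p = 0.000645) and higher than EV 10K with 0.86 ± 0.25 (adjusted p = 0.0294).

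GINS4 had its cell value of 85.8 CPM above every EV library, of which the highest had 45.5 CPM, with a log2 fold change over cells of -1.68 ± 0.44 (adjusted p = 0.00519, and 0.0526 with DESeq2). The GINS2, GINS3 and CDC45 cell values were above all EV libraries too, and none of these passed for the mean of EVs. In EV 100K taken separately CDC45 was lower than in cells (log2 fold change -2.15, adjusted p = 0.0337). CDC45 had 13.6, 33.5 and 18.5 CPM in EV 2.8K, 17.9, 8.30 and 13.2 CPM in EV 10K, 4.77, 12.8 and 9.85 CPM in EV 100K, and 41.1 CPM in cells. EV 100K lay below EV 2.8K in each library but overlapped EV 10K, and the log2 fold change of EV 100K over EV 2.8K was -1.26 ± 0.57 (adjusted p = 0.116). GINS3 had 17, 19 and 22 counts in EV 100K and 1 count in EV 10K replicate 3, so its level rests on few reads. The differences between subunits were not tested.

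Polymerase alpha-primase makes the primers. POLA1 (chrX:24693919-24996986, plus strand), its catalytic polymerase subunit, had 26.7, 57.0 and 71.7 CPM in EV 2.8K, 95.8, 93.2 and 79.7 CPM in EV 10K, 174, 146 and 108 CPM in EV 100K, and 104 CPM in cells. The 3 pellets did not overlap one another, and the cell library was just below the lowest EV 100K library. The log2 fold change of EV 100K over EV 2.8K was 1.45 ± 0.31 (adjusted p = 0.00154), and it passed under all 18 alternatives.

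PRIM1, the catalytic primase subunit, had log2 fold changes of EV 100K over EV 2.8K of -0.73 ± 0.61, and PRIM2, the large primase subunit, of 0.59 ± 0.42, and neither passed. POLA2, the regulatory subunit, had 0, 152 and 147 counts in EV 2.8K, 64, 2 and 10 in EV 10K, 60, 13 and 25 in EV 100K, and 419 in cells, where a count of 0 allows up to 3. Its libraries of 1 pellet disagreed by far more than counting error, and no comparison passed. POLA2 shares exon sequence with AP000944.2 on the same strand.

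Polymerases delta and epsilon copy most of the DNA. POLD1 (chr19:50384204-50418016, plus strand), the catalytic subunit of delta, had 63.5, 57.3 and 55.3 CPM in EV 2.8K, 68.3, 79.1 and 62.4 CPM in EV 10K, 142, 118 and 104 CPM in EV 100K, and 79.9 CPM in cells. All EV 100K libraries exceeded all others and the cells. EV 100K over EV 2.8K gave a log2 fold change of 1.04 ± 0.23 (adjusted p = 0.00251), and EV 100K over EV 10K gave 0.79 ± 0.23 (adjusted p = 0.0352), a call lost under 9 of 18 alternatives. POLD2 and POLD3, its accessory subunits, passed no comparison, with log2 fold changes of EV 100K over EV 2.8K of -0.12 and -0.08.

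POLE2, an accessory subunit of epsilon, had 5.88, 8.39 and 4.68 CPM in EV 2.8K, 13.1, 23.9 and 18.5 CPM in EV 10K, 23.8, 40.3 and 20.3 CPM in EV 100K, and 25.9 CPM in cells. Its EV 2.8K libraries were below all others, and EV 10K overlapped EV 100K. EV 100K exceeded EV 2.8K by 2.15 ± 0.50 on the log2 scale (adjusted p = 0.0033). POLE3, a histone-fold subunit of the same polymerase, had 172, 175 and 121 CPM in EV 2.8K, 134, 175 and 122 CPM in EV 10K, 79.9, 69.7 and 87.4 CPM in EV 100K, and 137 CPM in cells. EV 100K lay below every other library, with log2 fold changes of -0.99 ± 0.23 over EV 2.8K (adjusted p = 0.00351) and -0.87 ± 0.23 over EV 10K (adjusted p = 0.0188). The catalytic subunit POLE had 171, 111 and 62.1 CPM in EV 2.8K, 87.9, 55.3 and 65.7 CPM in EV 10K, 98.7, 81.0 and 82.6 CPM in EV 100K, and 129 CPM in cells, and passed no test.

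PCNA (chr20:5114953-5126626, minus strand), the sliding clamp, had the lowest log2 fold change over cells of the 42. It had 64.8, 48.9 and 51.9 CPM in EV 2.8K, 61.2, 76.9 and 90.3 CPM in EV 10K, 33.2, 26.9 and 19.1 CPM in EV 100K, and 205 CPM in cells. The cells were above all EV libraries and the 3 EV 100K libraries below the other 6. The log2 fold change of EVs over cells was -2.08 ± 0.32 (adjusted p = 1.01e-08), of EV 100K over EV 2.8K -1.07 ± 0.30 (adjusted p = 0.0118), and of EV 100K over EV 10K -1.53 ± 0.30 (adjusted p = 0.00239). PCNA has the processed copies PCNAP1, PCNAP3 and PCNAP4, and the counting of multi-mapping reads is not stated in the labels or headers.

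RFC1, the large subunit of the clamp loader, was one of 6 mRNAs higher in EV 100K than in EV 2.8K. It had 48.2, 85.6 and 63.2 CPM in EV 2.8K, 75.7, 72.5 and 118 CPM in EV 10K, 114, 113 and 103 CPM in EV 100K, and 69.8 CPM in cells. EV 100K exceeded all EV 2.8K libraries and the cells, with a log2 fold change over EV 2.8K of 0.73 ± 0.26 (adjusted p = 0.0491). The small subunits RFC2, RFC3, RFC4 and RFC5 had log2 fold changes of EV 100K over EV 2.8K of -0.77, 0.96, 0.65 and -0.14, and none passed. RFC2 was lower in EV 100K than in cells (log2 fold change -1.47, adjusted p = 0.0357).

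The RPA trimer coats unwound DNA. RPA1, RPA2 and RPA3 passed no test in the 4 main comparisons. RPA3, the smallest subunit, had 19.6, 9.77 and 17.5 CPM in EV 2.8K, 9.67, 31.9 and 11.8 CPM in EV 10K, 5.75, 4.03 and 5.72 CPM in EV 100K, and 12.1 CPM in cells. The EV 100K libraries were below all others, and the log2 fold change over EV 2.8K was -1.6 ± 0.61 (adjusted p = 0.0646).

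Okazaki fragments are trimmed by the flap nuclease FEN1 and joined by DNA ligase 1 (LIG1). LIG1 (chr19:48115445-48170603, minus strand) had 68.5, 49.2 and 41.8 CPM in EV 2.8K, 36.9, 33.3 and 37.3 CPM in EV 10K, 18.0, 18.3 and 18.0 CPM in EV 100K, and 64.2 CPM in cells. The pellets did not overlap, each speed below the one before, and EV 2.8K replicate 1 lay above the cells. EV 100K over EV 2.8K was -1.56 ± 0.33 on the log2 scale (adjusted p = 0.00138), and EV 100K over EV 10K was -1 ± 0.32 (adjusted p = 0.0556). FEN1 had 107, 89.1 and 100 CPM in EV 2.8K, 138, 125 and 173 CPM in EV 10K, 148, 139 and 109 CPM in EV 100K, and 195 CPM in cells. All 9 EV libraries were below the cells, and EV 2.8K was below EV 10K in every library. FEN1 passed no comparison, with a log2 fold change over cells of -0.65 ± 0.30 (adjusted p = 0.313).

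Ribonucleotide reductase makes deoxyribonucleotides, with RRM1 as its large and RRM2 as its small subunit. RRM2 (chr2:10120698-10131419, plus strand) had 72.1, 89.6 and 48.3 CPM in EV 2.8K, 73.1, 74.9 and 86.9 CPM in EV 10K, 62.8, 51.7 and 57.8 CPM in EV 100K, and 218 CPM in cells. Every EV library held less than the cells, and EV 2.8K overlapped both other pellets. The log2 fold change over cells was -1.67 ± 0.31 (adjusted p = 8.06e-06). RRM1 (chr11:4094707-4138876, plus strand) had 82.0, 91.5 and 83.4 CPM in EV 2.8K, 88.4, 123 and 108 CPM in EV 10K, 63.0, 64.9 and 69.9 CPM in EV 100K, and 206 CPM in cells. EV 100K lay below the other pellets in all 3 libraries. RRM1 was lower in EVs than in cells by -1.27 ± 0.31 on the log2 scale (adjusted p = 0.00169), and EV 100K over EV 10K was -0.70 ± 0.23 (adjusted p = 0.0551). RRM2 has pseudogene copies and shares exon sequence with AC007240.1 on the same strand.

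TK1 (chr17:78174075-78187233, minus strand), the thymidine kinase of the salvage pathway, had the lowest log2 fold change of the 42 in EV 100K over each other pellet. It had 225, 129 and 127 CPM in EV 2.8K, 139, 117 and 129 CPM in EV 10K, 13.0, 39.4 and 38.9 CPM in EV 100K, and 170 CPM in cells. The EV 100K libraries were far below all others, while EV 2.8K overlapped EV 10K and included the highest library. EV 100K over EV 2.8K gave a log2 fold change of -2.41 ± 0.35 (adjusted p = 5.82e-05) and over EV 10K -2.09 ± 0.35 (adjusted p = 0.000773). The mean over cells was -0.98 ± 0.31 (adjusted p = 0.0351).

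TYMS (chr18:657604-673578, plus strand), the thymidylate synthase, had 373, 154 and 135 CPM in EV 2.8K, 185, 169 and 164 CPM in EV 10K, 124, 116 and 92.2 CPM in EV 100K, and 256 CPM in cells. EV 2.8K replicate 1 stood far above its 2 fellows and above the cells, and all EV 100K libraries lay below every other library. EV 100K over EV 2.8K was -1 ± 0.30 (adjusted p = 0.0202), and without EV 2.8K replicate 1 it was -0.38 (adjusted p = 0.189). Exons of TYMS overlap ENOSF1 and TYMSOS on the opposite strand. EV 2.8K replicate 1 also held 12.9% mitochondrial counts, against 4.92% and 4.81% in the other 2 libraries, and the part of this difference in its values was not tested.

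**Figure D4:**
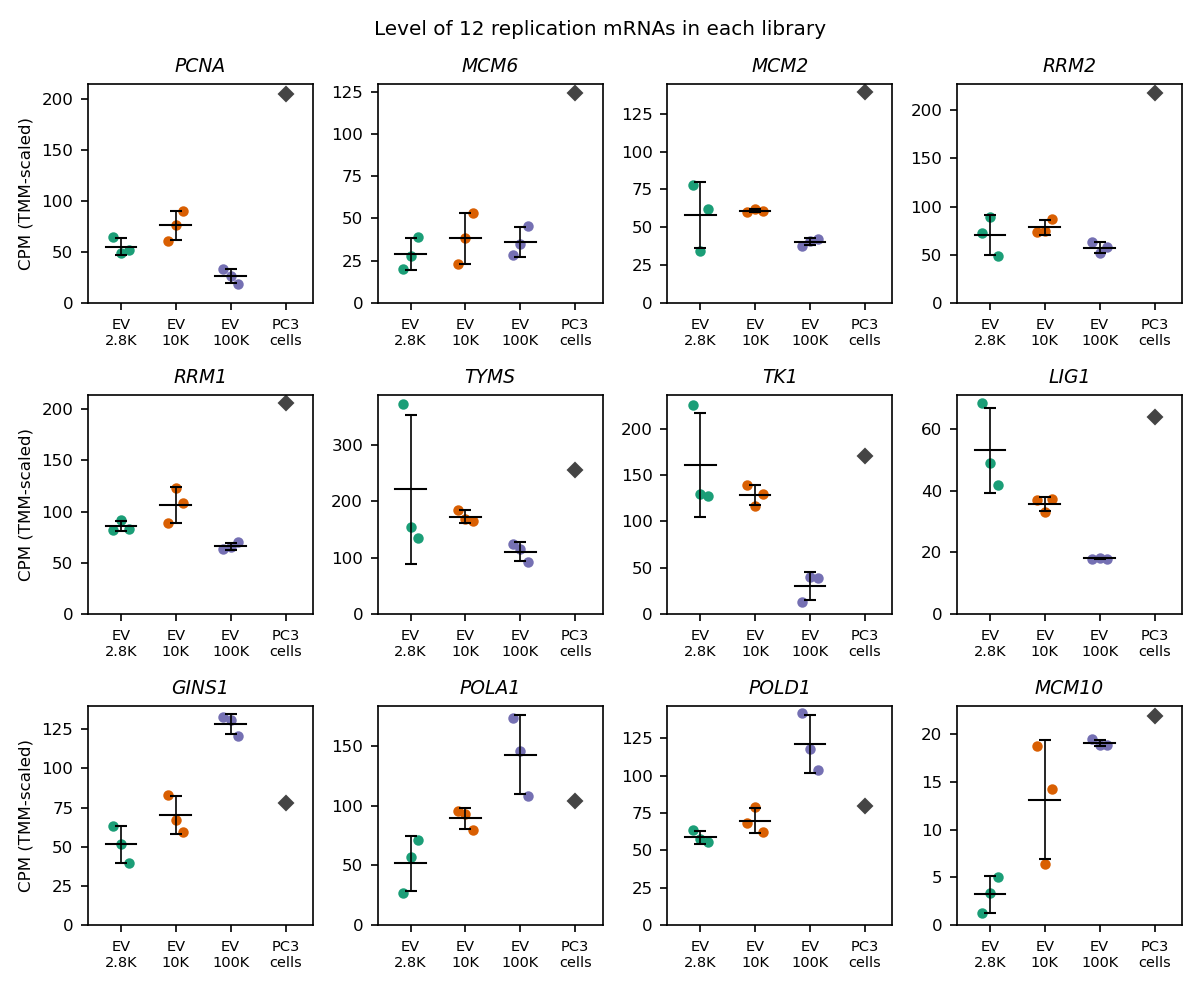
CPM scaled by TMM (y axis, from 0) of 12 mRNAs in each library, with 3 dots per EV pellet, a bar at the mean and whiskers of 1 SD, and a diamond for the single cell library. PCNA, MCM6, MCM2, RRM2 and RRM1 have the diamond above every dot, TK1, LIG1 and TYMS have their lowest dots in EV 100K, and GINS1, POLA1 and POLD1 have their highest dots there.

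Levels between genes were compared as CPM per kilobase of summed exons, a level and not a difference. PCNA was highest in cells with 139, and the lowest was POLA2 with 2.11. TYMS was highest in EV 2.8K with 89.5 and in EV 10K with 70.0, and FEN1 in EV 100K with 53.3, where PCNA ranked 9 with 17.9. TK1 ranked 2 in EV 2.8K with 86.0, 2 in EV 10K with 69.3, 10 in EV 100K with 16.4 and 4 in cells with 91.3. Per kilobase of the longest transcript, TYMS ranked 1 in each pellet and in cells, so the top place depends on the length used.

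Within the helicase ring, MCM3 was highest and MCM5 lowest per kilobase of summed exons in each group. The ratio was 12.6 for EV 2.8K, 7.55 for EV 10K, 9.16 for EV 100K and 6.14 for cells. Per kilobase of the longest transcript, MCM3 stayed highest, but MCM6 was lowest in EV 10K. The ratios were then 8.97, 6.57, 6.54 and 4.38. Within GINS, GINS1 was highest and GINS3 lowest in each group, with a ratio of 51.6 in EV 100K and 5.25 in cells. Per kilobase of the longest transcript the ratios were 40.5 and 4.13. The GINS3 level in EV 100K rests on 17, 19 and 22 counts. These ratios are described without a test.

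Genes outside the 42 gave the context. Of 36 other replication factors, 6 passed as higher and 8 as lower in EV 100K relative to EV 2.8K, where 12% and 13.8% of all genes did. CHAF1A, a histone chaperone subunit at the fork, had 1060, 654 and 696 CPM in EV 100K, against 195, 103 and 132 CPM in EV 2.8K, a log2 fold change of 2.48. DNA2, a nuclease of flap processing, had a log2 fold change of 2.32, and TOP1, the topoisomerase that relaxes DNA ahead of the fork, one of -2.04. Against cells, 2 of the 36 were higher in EVs (CHAF1A, 1.56 and CLSPN, a replication checkpoint protein, 1.04) and 1 was lower (TOP2A, the decatenating topoisomerase, -1.11), where 2.56% of all genes were higher and 1.88% lower. CLSPN lost this call with library totals alone and when EV 10K replicate 3 or, in turn, EV 100K replicate 1 was left out (adjusted p up to 0.181).

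Of 31 other nucleotide synthesis enzymes, 2 passed as higher and 13 as lower in EV 100K relative to EV 2.8K, against the same 12% and 13.8% of all genes, with a median log2 fold change of -0.65 against -0.06 for all genes. UMPS, which completes UMP synthesis, was higher at 2.96, and PRPS1 and SHMT2, which supply phosphoribosyl pyrophosphate and one-carbon units, were lower at -1.62 and -1.48. Against cells, 6 of the 31 were lower in EVs and 1 was higher, against 1.88% and 2.56% of all genes. CAD, the enzyme that starts pyrimidine synthesis, had 63.3, 62.0 and 51.5 CPM in EV 2.8K, 42.9, 29.4 and 69.4 CPM in EV 10K, 36.0, 28.4 and 48.5 CPM in EV 100K, and 202 CPM in cells. Its log2 fold change over cells was -2.09, and NME2, a nucleoside diphosphate kinase with near-identical relatives, was the one that was higher at 1.37, a call lost with library totals alone (adjusted p = 0.052).

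At the median, libraries of 1 pellet differed by more than counting error. The median coefficient of variation of the 42 mRNAs was 33.2% among EV 2.8K libraries, 23.1% among those of EV 10K and 16.3% among those of EV 100K, where counting alone would give 4.45%, 5.27% and 7.19%. Across all genes tested it was 47.6%, 38% and 22.8%. POLA2 had the highest value in each pellet, and the lowest were RRM1 in EV 2.8K with 5.96%, MCM2 in EV 10K with 1.56% and LIG1 in EV 100K with 1.2%. The MCM2 and LIG1 values lay below the counting medians of their pellets, so they do not measure how closely those libraries agree.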

How the data were processed

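The deposited table holds read counts per gene for 10 libraries, all of them whole and without normalization. The submitters' processing notes name the GRCh38 build and, among tools, featureCounts 1.6.3, STAR 2.6.1d, cutadapt 2.7 and bcl2fastq 2.19.1.403. The annotation, the strand setting and the treatment of multi-mapping reads were not given in the sources used here. Symbols, coordinates and lengths came from GENCODE release 29. The 42 genes, the role groups and the other lists were chosen with earlier results of these data known.

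The quasi-likelihood test of edgeR 4.0.16 (R 4.3.3) was run with robust spread and TMM scaling on genes that passed filterByExpr at a minimum count of 10, with Benjamini-Hochberg adjustment over all genes tested and a threshold of 0.05. Pellets were compared on the 9 EV libraries (15525 genes), without a term for the set number. EVs were compared with cells on all 10 (22370 genes, median prior degrees of freedom infinite). CPM values were scaled by TMM over all 10 libraries. Same-numbered libraries of different pellets had correlations of -0.037 to 0.112 of their deviations from pellet means, and differently numbered ones -0.101 to 0.07. For EV 100K with EV 10K, same-numbered pairs had 0.063 to 0.112 and the others -0.101 to -0.006. A shared source of same-numbered sets was not tested. The main fit did not pair them, and a set-number block was among the alternatives. The text names, per comparison, the 4 highest and 4 lowest fold changes among the 42 that passed and 11 genes set by name, with the rest described by role, and up to 3 each way from the other lists. Scripts were tested on simulated counts. Alternatives used RLE factors, library totals, no count filter, DESeq2 1.42.0, limma 3.58.1 voom, other sets of libraries, a set-number block and no mitochondrial genes. Figures used matplotlib 3.10.9 under Python 3.11.15.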

Additional observations from a re-analysis of the deposited data

How the results depend on the processing

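The number of the 42 mRNAs called, 0 for EV 10K against EV 2.8K, 12 for EV 100K against EV 2.8K, 5 for EV 100K against EV 10K and 11 for EVs against cells, was recomputed under each alternative, and no fold change of a called mRNA reversed. With the set number as a replicate block the counts stayed at 0, 12 and 5. For EV 10K against EV 2.8K, DESeq2 called 2 (10.7% of all genes, against 6.38%) and leaving out each library gave 0 to 3 (3.3% to 7.01%). For EV 100K against EV 2.8K, leaving out each library gave 9 to 13 (16.4% to 24.7% of all genes, against 25.8%). For EV 100K against EV 10K, DESeq2 and limma voom each called 8 (19.1% of all genes in each, against 10.9%), a fit of only the 6 libraries compared called 11 (20%), and leaving out each library gave 2 to 10 (5.72% to 15.2%). For EVs against cells, library totals gave 17 (6.08% of all genes, against 4.43%), DESeq2 7 (10.3%) and limma voom 28 (16.7%). EV 2.8K alone gave 6 (2.23%), EV 10K alone 6 (4.43%) and EV 100K alone 16 (10%). Leaving out each EV library gave 8 to 15 (3.72% to 7.03%). The cause of these differences was not tested. Without mitochondrially encoded genes the share of counts was 0.259% in EV 2.8K and 0.513% in cells. The cell library could not be left out, protein length was not used, and 3 libraries a pellet limit what could be called.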

Other observations

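Of 20 regulators of S phase entry tested between EV 100K and EV 2.8K, 5 passed as higher and 3 as lower, where 12% and 13.8% of all genes did. E2F1, a transcription factor that drives many replication genes, had 131, 78.7 and 71.8 CPM in EV 2.8K, 360, 311 and 216 CPM in EV 10K, 871, 785 and 749 CPM in EV 100K, and 64.3 CPM in cells. Its log2 fold change was 3.08 for EV 100K over EV 2.8K and 2.14 for EVs over cells, where it was the one regulator of the 20 that passed. CDK6, a kinase of the G1 phase, and E2F3 had log2 fold changes of 2.62 and 1.43 for EV 100K over EV 2.8K. The inhibitors CDKN1A and RB1 had -2.27 and -2, and the cyclin CCND3 had -1.61. RB1 lost its call without EV 2.8K replicate 2, EV 100K replicate 1 or EV 100K replicate 2 (adjusted p up to 0.0943).

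Across the 42 mRNAs, the log2 fold change of EV 100K over EV 10K had a Spearman rho of 0.43 with transcript length, against 0.35 over 12009 protein-coding genes. For EV 100K over EV 2.8K rho was 0.33, against 0.24, and for EV 10K over EV 2.8K 0.02, against -0.02. For EVs over cells rho was -0.03, against -0.05 over 13528 genes. With GC content of the transcript it was -0.34 for EV 100K over EV 2.8K, against -0.19. Genes in such a correlation share libraries and are not independent. With coding length, rho for EV 100K over EV 2.8K was 0.28 across the 42 and 0.08 across the protein-coding genes. With the length of the 3′ untranslated region it was 0.11 across the 42 and 0.25 across the protein-coding genes.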
